A study of Mus musculus with 6 samples.

Results

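The genes described here are 10 of the 55385 in the count files: the microtubule-associated protein genes Mapt, Map1a, Map1b, Map2 and Dcx, the 4 stathmin genes Stmn1 to Stmn4, and Gap43. They were chosen by gene symbol for what their proteins do in neurons, not by a measured value, though with earlier results of these data known. All 10 were among the 18132 genes tested. They were read in 6 libraries of ribosome-depleted total RNA from mouse primary cortical neurons, isolated from cortices at embryonic day 18, exposed from day 2 after plating to 2.5 uM AraC, which blocks DNA synthesis, for 24 hours, and harvested after 16 days in culture. In the 3 libraries labelled activated, the neurons had been depolarised with KCl for 5 minutes, washed and left to recover for 30 minutes in conditioned medium. The 3 libraries labelled control came from untreated neurons that had the same AraC exposure. One label field gives the KCl concentration as 50 mM and another as 50 uM. Whether replicates came from separate cultures or animals is given in no field, and p-values cover the spread between these libraries, which may be technical.

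Microtubules run the length of axons and dendrites as tracks for transport and as structural supports, and their growth and stability are set by proteins that bind them. MAP2 is a classic marker of dendrites and cell bodies, whereas tau, the product of Mapt, is concentrated in axons. MAP1B is prominent in growing axons of the developing brain and MAP1A in mature neurons, and doublecortin (Dcx) stabilises microtubules in migrating and young neurons. Stathmins bind free tubulin and promote disassembly, and GAP-43 is an actin-regulating, membrane-attached protein of growth cones that marks axon growth and regeneration.

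Reads assigned to genes numbered 17752711, 27681419 and 32740171 in replicates 1, 2 and 3 labelled activated, and 27881179, 22994946 and 32919975 in replicates 1, 2 and 3 labelled control. Mitochondrially encoded genes took 21.3% to 25.0% of gene reads in the libraries labelled activated and 14.7% to 17.1% in those labelled control. The activity-induced gene Arc averaged 48.9 CPM (read counts divided by library size, scaled by TMM) in the libraries labelled activated and 176 CPM in those labelled control, and Npas4 averaged 44.3 CPM in the libraries labelled activated and 159 CPM in those labelled control. These genes, which depolarisation is known to induce, ran against the labels. Libraries are for that reason called by what they are labelled, and every direction given depends on the labelling.

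Map2 was the only one of the 10 genes that rose in the libraries labelled activated, and 7 fell: Gap43, Mapt, Dcx and all 4 stathmins (edgeR quasi-likelihood test, adjusted p below 0.05). The decreases lay between 14.4% for Dcx and 30.5% for Gap43, and the increase of Map2 was 19.9%. Map1a and Map1b did not pass. Among all 18132 genes tested, 20.6% were called lower, 16.2% higher and 36.8% in either direction. Libraries of the 2 labels were fully separate for 9 of the 10 genes, 8 of them lower and 1 higher, against 49.0% of all tested genes in either direction and 26.4% in the lower direction. The median log2 fold change (labelled activated over labelled control) was -0.37 over the 10 genes and 0.04 over all tested genes. Together the 10 genes took 0.691% to 0.730% of gene reads in the libraries labelled activated and 0.758% to 0.796% in those labelled control. Those gene reads include the mitochondrially encoded genes, whose share differed between the labels. In summed CPM scaled by TMM the groups overlapped, at 7099 to 7709 CPM in the libraries labelled activated and 7383 to 7841 CPM in those labelled control.

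**Figure D1:**
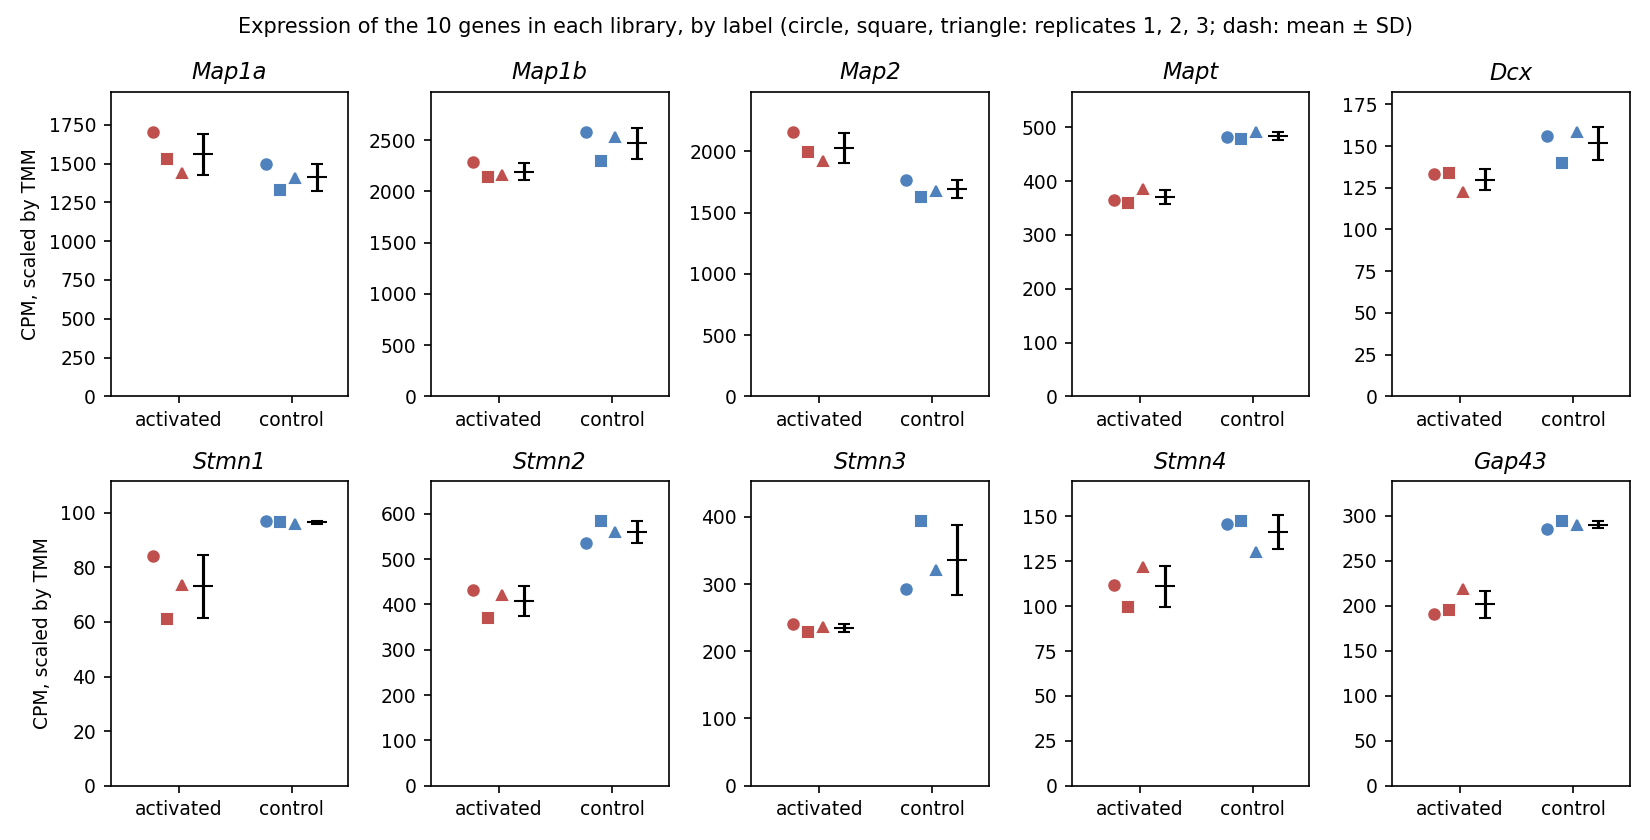
Expression of the 10 genes in CPM scaled by TMM (vertical axes from 0), libraries labelled activated on the left of each panel and labelled control on the right, with circle, square and triangle for replicates 1, 2 and 3 and a dash with bars for the mean ± SD (n = 3). Map2 lay higher in all 3 libraries labelled activated, Map1a overlapped, and the other 8 genes lay lower.

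Among the structural microtubule-associated proteins, Map2 (ENSMUSG00000015222.18, mm10 chromosome 1, 66175273 to 66442583, plus strand) stood at 2160, 1998 and 1923 CPM in replicates 1, 2 and 3 labelled activated, against 1768, 1626 and 1677 CPM in replicates 1, 2 and 3 labelled control. The lowest library labelled activated lay above the highest labelled control. The log2 fold change was 0.26 ± 0.07 (standard error; adjusted p = 0.0123 by edgeR), and without activated replicate 1, the highest library, it was 0.21 with no call (edgeR adjusted p = 0.0619).

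Mapt (ENSMUSG00000018411.17, chromosome 11, 104231390 to 104332090, plus strand), which like Map2 encodes a protein of the MAP2 and tau family with related microtubule-binding repeats, went the other way. It stood at 366, 360 and 385 CPM in the libraries labelled activated and at 481, 478 and 492 CPM in those labelled control, tight groups that were far apart. The difference on the log2 scale was -0.39 ± 0.06 (standard error; adjusted p = 0.000295 by edgeR).

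The paired genes of the MAP1 family differed in sign, though neither passed. Map1a (ENSMUSG00000027254.13, chromosome 2, 121289600 to 121310832, plus strand) had 1705, 1531 and 1442 CPM in the libraries labelled activated and 1496, 1328 and 1406 CPM in those labelled control. These groups overlapped, and the log2 fold change was 0.15 ± 0.08 (standard error; adjusted p = 0.162 by edgeR). It was 0.07 without activated replicate 1 and with total counts only. Map1b (ENSMUSG00000052727.6, chromosome 13, 99421446 to 99516540, minus strand), with the most reads of the 10 genes, had 2285, 2141 and 2156 CPM in the libraries labelled activated and 2583, 2294 and 2531 CPM in those labelled control. Its groups did not overlap, but the gap between the nearest libraries was small, and the log2 fold change of -0.17 ± 0.07 (SE) missed the threshold (edgeR adjusted p = 0.0844). Map1b was called lower under 5 alternatives, with values of -0.24 for total counts only, -0.17 for the DESeq2 Wald test, -0.19 with no low-count filter, -0.21 with offsets for exon length and GC content, and -0.19 with mitochondrially encoded genes left out.

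Dcx (ENSMUSG00000031285.14, chromosome X, 143855842 to 143933311, minus strand) had the smallest decrease of those that passed. It stood at 133, 134 and 122 CPM in the libraries labelled activated and at 156, 140 and 159 CPM in those labelled control, with no overlap. The log2 fold change of -0.22 ± 0.07 (standard error; adjusted p = 0.0179 by edgeR) lost its call without control replicate 1 (-0.19, edgeR adjusted p = 0.0695) or control replicate 3 (-0.19, edgeR adjusted p = 0.0931).

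All 4 stathmin genes fell, by similar amounts. Stmn2 (ENSMUSG00000027500.10, chromosome 3, 8509360 to 8561606, plus strand), which encodes SCG10, a palmitoylated stathmin of growth cones, stood at 432, 370 and 421 CPM in the libraries labelled activated and at 536, 584 and 560 CPM in those labelled control. It was the most abundant stathmin in reads, and every library labelled activated was lower, a log2 difference of -0.46 ± 0.07 (standard error; adjusted p = 0.000295 by edgeR). Stmn3 (ENSMUSG00000027581.12, chromosome 2, 181306459 to 181314500, minus strand), encoding the related neuronal protein SCLIP, had 241, 229 and 236 CPM in the libraries labelled activated and 292, 394 and 321 CPM in those labelled control. Control replicate 2 stood apart as the highest library, and without it the log2 fold change of -0.51 ± 0.09 (standard error; adjusted p = 0.000639 by edgeR) was -0.37 and still called.

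Stmn1 (ENSMUSG00000028832.11, chromosome 4, 134468320 to 134473843, plus strand), encoding the cytosolic founding member of the family, which is also made by dividing cells, had 84.3, 61.2 and 73.5 CPM in the libraries labelled activated and 97.0, 96.7 and 95.8 CPM in those labelled control. The libraries labelled control were nearly identical, whereas those labelled activated were spread (log2 fold change -0.41 ± 0.09, standard error; adjusted p = 0.00313 by edgeR). Stmn4 (ENSMUSG00000022044.14, chromosome 14, 66344296 to 66361680, plus strand), encoding the neuronal stathmin RB3, had 112, 99.3 and 122 CPM in the libraries labelled activated and 146, 148 and 130 CPM in those labelled control (log2 fold change -0.35 ± 0.08, standard error; adjusted p = 0.0039 by edgeR). Its groups came close without overlapping.

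Gap43 (ENSMUSG00000047261.9, chromosome 16, 42248442 to 42340651, minus strand) had the largest decrease and the smallest p of the 10 genes. It stood at 191, 195 and 218 CPM in the libraries labelled activated and at 286, 294 and 290 CPM in those labelled control. The gap between the groups was more than the range within either, and the log2 fold change was -0.53 ± 0.07 (standard error; adjusted p = 6.85e-05 by edgeR). Gap43 was the only one of the 10 genes called, in the same direction, under all 16 alternatives run.

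RefSeq promoter windows (GRCm38.p6), from 250 bases before to 50 after the annotated start, were found for 5 of the 10 genes: Map2, Map1a, Map1b, Stmn3 and Dcx. Those of Map2, the gene that rose, of the MAP1 pair, which did not pass, and of Stmn3, as a gene that fell, are shown as examples. Capitals mark matches on either strand to the GC box GGGCGG and the TATA box TATAAA. The same windows were searched for TGACGTCA (the full cAMP response element), its core TGACG and the AP-1 site TGANTCA, with no match in any of the 5 genes. The windows lie at chr1:66175079-66175378 (plus strand) for Map2, chr2:121289352-121289651 (plus) for Map1a, chr13:99516553-99516852 (minus) for Map1b and chr2:181314451-181314750 (minus) for Stmn3.
Map2: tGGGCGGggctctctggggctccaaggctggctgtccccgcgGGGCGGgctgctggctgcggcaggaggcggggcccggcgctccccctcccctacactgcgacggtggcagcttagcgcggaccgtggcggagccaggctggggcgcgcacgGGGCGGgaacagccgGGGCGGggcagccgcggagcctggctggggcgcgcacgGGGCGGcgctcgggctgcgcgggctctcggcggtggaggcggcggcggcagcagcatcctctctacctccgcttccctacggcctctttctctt
Map1a: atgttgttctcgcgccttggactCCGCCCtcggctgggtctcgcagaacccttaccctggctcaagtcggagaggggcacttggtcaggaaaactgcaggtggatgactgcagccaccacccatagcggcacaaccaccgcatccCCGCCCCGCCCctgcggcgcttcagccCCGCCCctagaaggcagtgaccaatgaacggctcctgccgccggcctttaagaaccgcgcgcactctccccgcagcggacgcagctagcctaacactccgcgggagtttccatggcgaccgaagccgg
Map1b: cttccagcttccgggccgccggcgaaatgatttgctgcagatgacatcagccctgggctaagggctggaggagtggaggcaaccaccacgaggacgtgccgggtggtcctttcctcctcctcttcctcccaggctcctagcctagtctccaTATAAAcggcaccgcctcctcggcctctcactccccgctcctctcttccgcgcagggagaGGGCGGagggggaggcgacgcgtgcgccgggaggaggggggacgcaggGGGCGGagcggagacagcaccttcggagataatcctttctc
Stmn3: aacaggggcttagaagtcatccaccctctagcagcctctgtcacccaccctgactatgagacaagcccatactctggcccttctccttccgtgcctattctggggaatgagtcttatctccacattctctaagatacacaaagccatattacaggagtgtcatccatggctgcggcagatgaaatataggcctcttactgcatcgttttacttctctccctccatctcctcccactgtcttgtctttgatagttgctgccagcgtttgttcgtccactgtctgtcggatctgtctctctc

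The Map2 window held 5 GC boxes in 77.7% G and C, and that of Map1a held 4, some overlapping, in 65.7% G and C. The Map1b window held 2 GC boxes and 1 TATA box, also at 65.7%. The Stmn3 window, at 49.7% G and C, held neither, and the Dcx windows, at 43.0% and 44.7%, each held 1 TATA box and no GC box. Of 32851 promoter windows in the table, 35.7% held a GC box, 13.6% a TATA box, 1.79% a full cAMP response element, 20.8% its core and 7.81% an AP-1 site. Their median was 52.7% G and C. Whether promoter type went with direction was not tested. A match is a string of letters and not a measured binding site, and these windows say nothing about the genes whose promoters were not found.

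Levels can be compared between genes only per length, so CPM were divided by the summed exon length in kilobases. On this scale Stmn3 was the highest of the 10 genes in both groups, at 207 ± 5.13 CPM per kilobase in the libraries labelled activated and 296 ± 46.0 in those labelled control (SD, n = 3 each). Dcx was the lowest, at 10.3 ± 0.510 CPM per kilobase in the libraries labelled activated and 12 ± 0.790 in those labelled control. Between them the order differed. In the libraries labelled activated, Map1b (138 CPM per kilobase), Gap43 (132), Map1a (128) and Map2 (123) formed a tier in which each overlapped the next. In the libraries labelled control, Gap43 (190 CPM per kilobase), Map1b (156), Map1a (116) and Map2 (103) were ordered without overlap, except that Map2 overlapped Stmn2, the next below it. Below these, Stmn2, Stmn4, Mapt and Stmn1 kept their order in both groups, with Stmn2 at 72.8 and Stmn1 at 38 CPM per kilobase in the libraries labelled activated, and Stmn4 at 73.7 and Stmn1 at 50.2 in those labelled control. Lengths came from the union of all annotated exons, so genes with many alternative exons are understated.

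**Figure D2:**
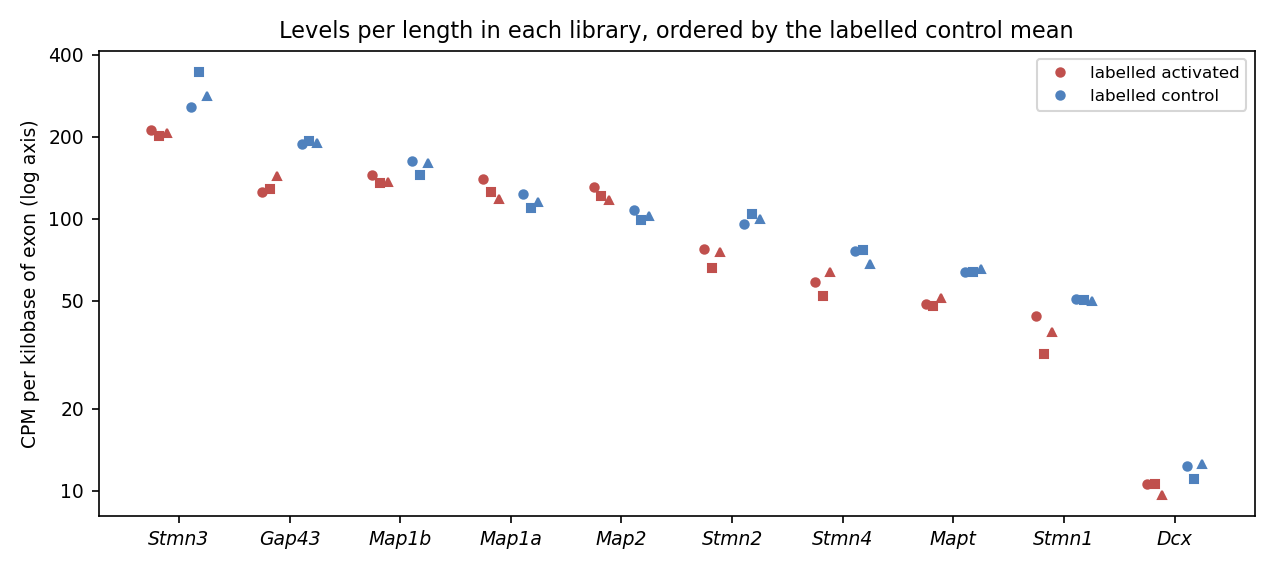
Levels in CPM per kilobase of exon on a log axis, 1 point per library (circle, square, triangle for replicates 1, 2, 3), labelled activated left of labelled control for each gene, ordered by the labelled control mean. Stmn3 was highest and Dcx lowest in both groups, and only Map2 and Map1a had higher means in the libraries labelled activated.

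Ratios of genes within a library do not depend on how libraries are scaled, and 6 such ratios were compared. The groups were separate for 5 of them, each with a two-sided exact permutation p of 0.1, the smallest that 3 against 3 libraries can give (0.12 after Benjamini-Hochberg adjustment over the 6). All of these 5 but Map1b over Map1a contain Map2, so they are not independent of one another. Map2 over Mapt had log2 ratios (reads per kilobase) of 1.43, 1.35 and 1.19 in the libraries labelled activated and 0.75, 0.64 and 0.64 in those labelled control, a difference of 0.65. The dendritic gene thus stood 2.51-fold above the axonal one in the libraries labelled activated and by less than that in those labelled control, where the mean log2 ratio was 0.68.

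Gap43 over Map2 differed most, with log2 ratios of -0.07, 0.08 and 0.29 in the libraries labelled activated and 0.80, 0.97 and 0.90 in those labelled control, a difference of -0.79. The genes were thus near parity per length in the libraries labelled activated, while Gap43 stood 1.85-fold above Map2 in those labelled control. Dcx over Map2 averaged -3.58 ± 0.06 in the libraries labelled activated and -3.10 ± 0.07 in those labelled control (log2, SD, n = 3 each), a difference of -0.48.

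Map1b over Map1a averaged 0.11 ± 0.08 in the libraries labelled activated and 0.43 ± 0.03 in those labelled control (log2, SD, n = 3 each), a difference of -0.31. The MAP1 pair was thus separated by label as a ratio although neither gene passed alone. The summed stathmins over summed Mapt, Map1a, Map1b and Map2 averaged -0.23 ± 0.08 in the libraries labelled activated and 0.24 ± 0.21 in those labelled control, a difference of -0.47. Only Stmn1 over Stmn2 overlapped, at -0.95 ± 0.12 in the libraries labelled activated and -0.99 ± 0.06 in those labelled control (two-sided exact permutation p = 0.7).

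**Figure D3:**
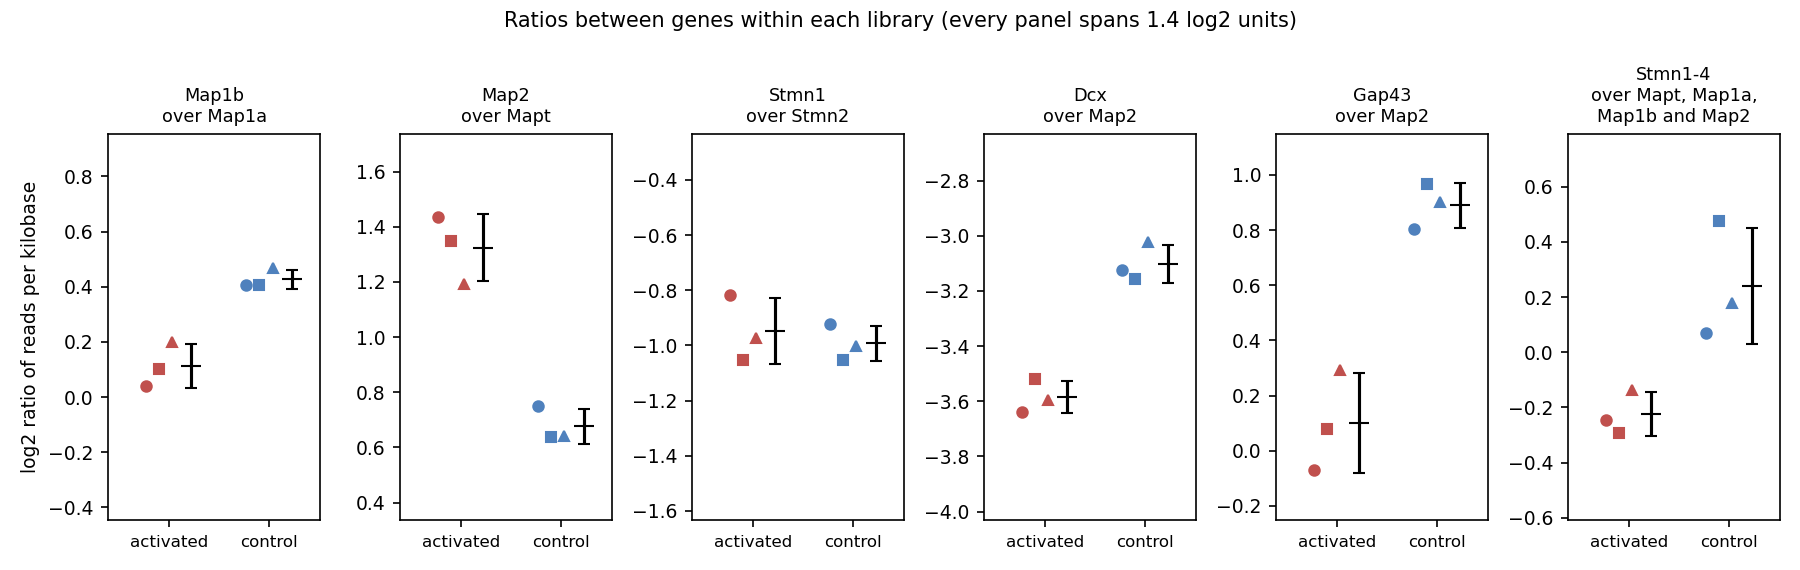
Log2 ratios of reads per kilobase between genes in each library, labelled activated left and labelled control right, with circle, square and triangle for replicates 1, 2 and 3 and a dash with bars for the mean ± SD (n = 3). Each panel has its own centre but the same span. The groups are separate in every panel but Stmn1 over Stmn2.

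The 7 genes that fell were set beside markers of cell types. Among all tested genes, 20.6% were called lower and 16.2% higher. Of 17 pan-neuronal genes, used to check the labelled cell type, 11 fell and none rose, leaving 6 that did not pass, and their median on the log2 scale was -0.35 beside 0.04 for all tested genes. They were led by the enolase gene Eno2 (-0.64), the deubiquitinase gene Uchl1 (-0.73) and the splicing regulator gene Rbfox1 (-0.46), and their summed level was 8499 to 9678 CPM in the libraries labelled activated and 10152 to 10303 CPM in those labelled control. In bulk RNA, fewer neurons and less of this RNA per neuron cannot be told apart.

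The astrocyte, vascular, fibroblast and oligodendrocyte lineage markers that passed moved the opposite way, where 16.2% of all tested genes were called higher. Of 15 astrocyte markers tested, 13 rose and none fell (median 0.58), led by Slc1a3 (0.69), Apoe (0.70) and Aldh1l1 (0.58), and their summed level was 2104 to 2580 CPM in the libraries labelled activated and 1622 to 1670 CPM in those labelled control. Of 13 vascular and fibroblast markers, 9 rose and none fell (median 0.71), led by Fn1 (0.79), Col1a2 (0.88) and Slco1a4 (0.73), at 392 to 451 CPM in sum in the libraries labelled activated and 251 to 283 CPM in those labelled control. Kdr (0.33), Dcn (0.41), Pecam1 (0.24) and Vtn (-0.04) did not pass. Other markers on this list were nearly absent and not tested, with at most 1 read in any library for Cldn5 and Cdh5, 4 for Tek and 5 for Lum. Of 8 oligodendrocyte lineage markers, 4 rose and none fell (median 0.41), led by Olig2 (0.70), Cspg4 (0.81) and Olig1 (0.54), at 80.2 to 91.2 CPM in sum in the libraries labelled activated and 62.3 to 67.0 CPM in those labelled control. Markers of mature oligodendrocytes were nearly absent, since Mog, Mag and Mobp had at most 7 reads in any library and Gpr17 had 0 in all.

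Microglia markers overlapped between groups in sum, at 81.9 to 155 CPM in the libraries labelled activated and 66.1 to 91.6 CPM in those labelled control. Of 13 tested, 8 rose and none fell (median 0.58), with Tyrobp (0.65) and C1qc (0.77) among the first by p. The 8 became 1 without activated replicate 3 or control replicate 3, 5 without control replicate 1, 3 with total counts only and 4 by the DESeq2 Wald test. Of 12 genes of dividing cells and progenitors, 3 rose and 2 fell (median 0.18), with Nes (0.57), Pax6 (0.62) and the proliferation marker Mki67 (0.61) higher and Eomes (-0.81) and Pcna (-0.45) lower. The 3 higher became 1 without activated replicate 1 or control replicate 2. Over all tested genes 16.2% were called higher and 20.6% lower. Of 8 markers of young neurons, 4 fell and 1 rose (median -0.27), among them the transcription factor genes Sox4 (-0.53) and Sox11 (-0.33) and the tubulin gene Tubb2b (-0.41), and the 1 that rose was Igfbpl1 (0.61). The part that cell makeup had in the values of the 10 genes was not tested.

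When libraries were scaled so that the pan-neuronal genes had the same mean level, 1 of the 10 genes was lower and 3 were higher, where 3.36% and 51.0% of all tested genes were called lower and higher. Of the 17 pan-neuronal genes that set this scaling, 5 were themselves called lower and 6 higher, so its zero is an average over genes that differed. This scaling moved the median of all tested genes up by 0.32, to 0.37. Gap43 was the gene still lower, with a log2 fold change of -0.20 ± 0.06 (standard error; adjusted p = 0.0106 by edgeR). Map2 (0.59 ± 0.06, standard error; adjusted p = 1.2e-05 by edgeR), Map1a (0.47 ± 0.07, standard error; adjusted p = 0.000134 by edgeR) and Map1b (0.15 ± 0.06, standard error; adjusted p = 0.0452 by edgeR) were higher, the last with its sign turned. Mapt (-0.06), Stmn1 (-0.09), Stmn2 (-0.14), Stmn3 (-0.19), Stmn4 (-0.02) and Dcx (0.10, with its sign turned) did not pass. A change of scaling moves all genes by nearly the same amount, so it sets the zero and is no test of cell makeup. Relative to the median of all tested genes, Map2 stood at 0.22 and Gap43 at -0.57 under either scaling.

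**Figure D4:**
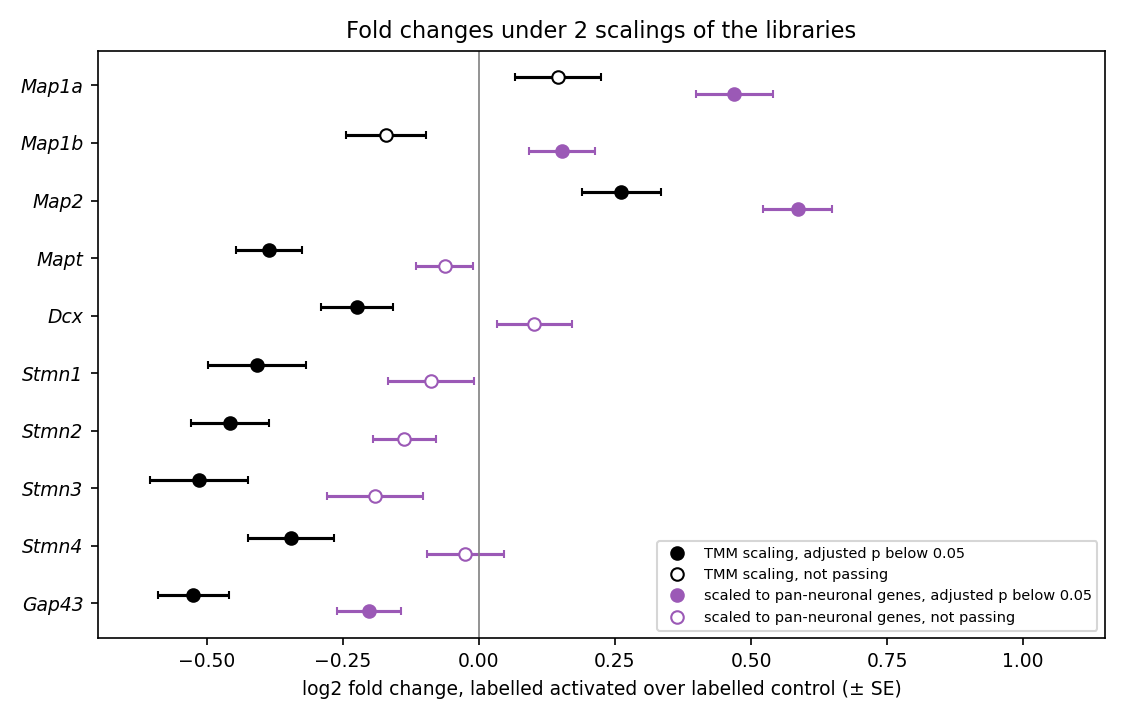
Log2 fold changes with SE bars for the 10 genes under TMM (black) and with libraries scaled to pan-neuronal genes (purple), filled where the edgeR adjusted p was below 0.05. The second scaling moves every gene to the right by a like amount, which leaves Gap43 lower, Map1a, Map1b and Map2 higher, and the other 6 not passing.

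Other genes of the neuronal microtubule system were read from 7 lists. Under TMM, 20.6% of all tested genes were called lower and 16.2% higher, and these shares stand beside the counts of all 7 lists. Of 17 other lattice-binding microtubule-associated proteins, 12 fell, none rose and 5 did not pass (median log2 fold change -0.33 beside 0.04 for all tested genes). Map6, whose product protects microtubules from cold and drugs, had -0.48, Map7d2, a kinesin-recruiting relative of Map7, -0.54, and Map9 -0.52. Of 19 proteins of microtubule ends, 11 fell, 3 rose and 5 did not pass (median -0.24). The plus-end tracking genes Mapre3 (-0.47), Mapre1 (-0.45) and Clip2 (-0.40) fell, and the 3 that rose were Nav2 (0.25), the giant crosslinker gene Macf1 (0.20) and Apc (0.22). The 3 of 19 called higher were near the 16.2% of all tested genes. Nav2, Macf1 and Apc were named after their values were seen. The count of 3 became 1 without activated replicate 1, control replicate 2 or control replicate 3, with total counts only, and with length and GC offsets. Under the pan-neuronal scaling 3 of the 17 lattice-binding genes were lower and 4 higher, and of the 19 genes of microtubule ends 0 were lower and 8 higher (edgeR). Shares over all tested genes were then 3.36% lower and 51.0% higher.

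Of 12 enzymes that sever or take apart microtubules, 3 fell, none rose and 9 did not pass. The 25% called lower was near the 20.6% of all tested genes, and the median of 0.16 was opposite in sign to the calls. Those that fell included Kif2a (-0.39), which encodes a kinesin that depolymerises microtubules, and the katanin-like gene Katnal1 (-0.22). Of 16 tubulin-modifying enzymes, 8 fell, 2 rose and 6 did not pass (median -0.17), led by the polyglutamylase genes Ttll7 (-0.44) and Ttll1 (-0.50) and the tubulin tyrosine ligase gene Ttl (-0.37), and the 2 that rose were Ttll4 (0.27) and Ttll5 (0.25). The 2 of 16 called higher were not above the 16.2% of all tested genes called higher. The 2 higher became 0 without activated replicate 2, control replicate 1 or control replicate 3 and with scaling by total counts. That count was 1 without activated replicate 1 or control replicate 2 and with length and GC offsets. The 8 lower became 4 without activated replicate 2. Under the pan-neuronal scaling no severing gene was lower and 7 were higher, and no tubulin-modifying gene was lower and 6 were higher. With that scaling 3.36% of all tested genes were called lower and 51.0% higher.

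Kinases, phosphatases and partners that act on tau and other microtubule-associated proteins fell almost throughout. Of 26 such genes, 25 fell and none rose, the other being Mark3 (-0.06), and the median was -0.34. Among all tested genes, 20.6% were called lower and 16.2% higher under TMM. The catalytic and scaffold subunit genes of protein phosphatase 2A, a tau phosphatase, came first, with Ppp2ca at 191 ± 16.1 CPM in the libraries labelled activated and 315 ± 17.1 CPM in those labelled control (SD, n = 3 each; log2 fold change -0.73) and Ppp2r1a at -0.68. Cdk5r1, which encodes the p35 activator of CDK5, had -0.64. Under the pan-neuronal scaling 5 of the 26 were lower and 1 was higher, where 3.36% and 51.0% of all tested genes were called lower and higher.

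Of 20 axon growth genes, 13 fell, none rose and 7 did not pass (median -0.27). Gprin1, a partner of G proteins in neurite outgrowth, fell by 0.64 on the log2 scale, the MARCKS-like gene Marcksl1 by 0.59 and the collapsin response mediator gene Crmp1 by 0.53. Without activated replicate 2, 3 of the 20 were higher, and without control replicate 1, 1 was. Under the pan-neuronal scaling 5 of the 20 were lower and 7 higher. Of 21 motor protein genes, 14 fell, none rose and 7 did not pass (median -0.31), led by the kinesin light chain genes Klc2 (-0.55) and Klc1 (-0.54) and the dynein intermediate chain gene Dync1i1 (-0.57). Under the pan-neuronal scaling 3 of the 21 were lower and 7 higher. Beside both lists, 20.6% of all tested genes were called lower and 16.2% higher under TMM. Under the pan-neuronal scaling those shares were 3.36% and 51.0%.

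**Figure D5:**
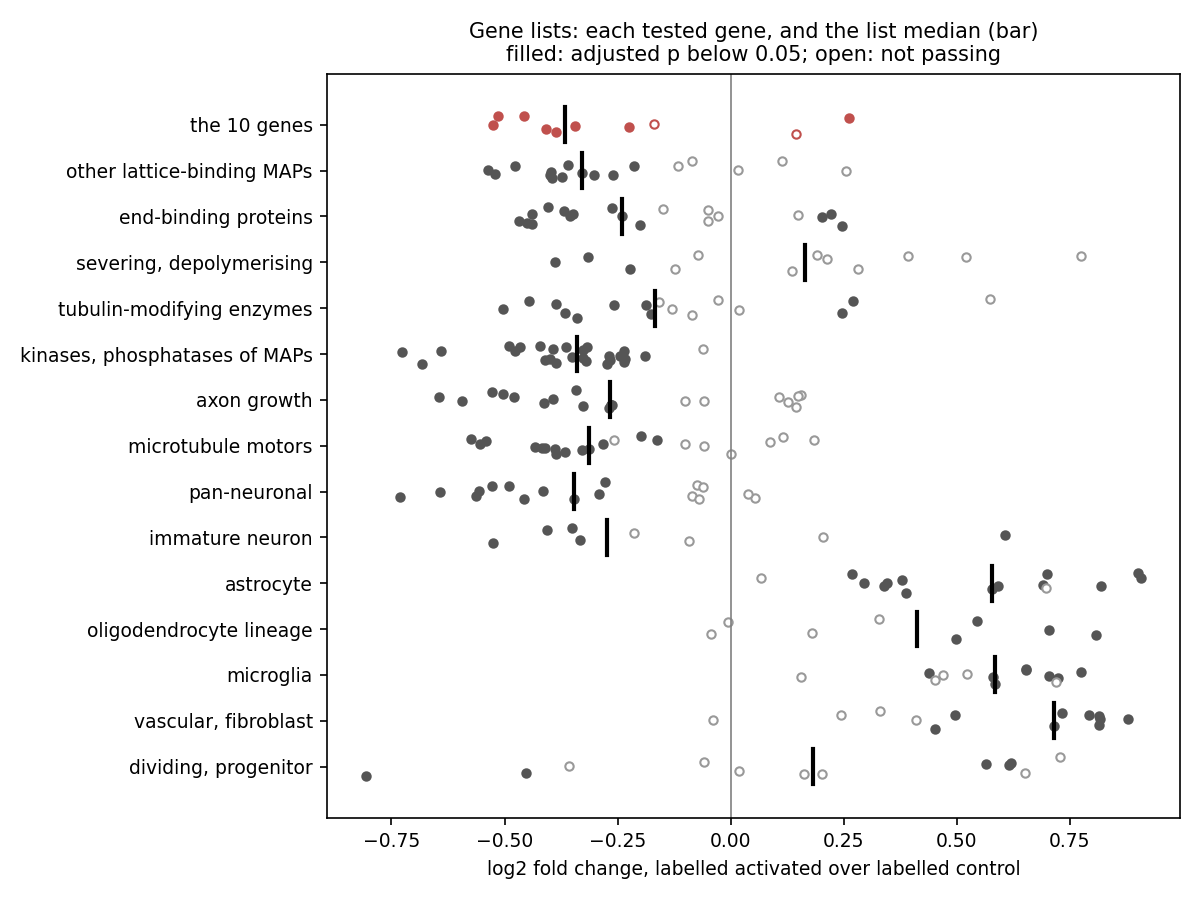
Log2 fold change (labelled activated over labelled control) of every tested gene in each list, filled where the edgeR adjusted p was below 0.05, with a bar at the list median. Medians of the neuronal and most microtubule lists lie below 0 and those of glial, vascular and progenitor lists above 0, with Map2 apart from most of the 10 genes.

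Exon length and strand were examined beside the 10 genes' values. By the union of annotated exons, Stmn1, Stmn3, Stmn4 and Gap43 are short (1136 to 1922 bases). Stmn2, at 5602 bases, fell in the second longest of 5 length bins (4645 to 7006), and the other 5 genes are long (7531 to 16449). Across all tested genes the median log2 fold change was 0.11 in the shortest genes (48 to 1914 exonic bases) and 0.03 in the longest (7007 or more). With offsets for exon length and GC content, the same 7 genes were lower and Map2 higher (0.22), with Map1b lower as well, where 23.9% and 13% of all tested genes were called lower and higher.

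Reads on the opposite strand of the 10 genes made up 0 to 0.292% of both strands in any library, beside 4.05% to 4.29% over all genes. The share at Mapt averaged 0.167% ± 0.031 in the libraries labelled activated and 0.092% ± 0.012 in those labelled control (SD, n = 3 each; two-sided exact permutation p = 0.1, the smallest possible, and 0.5 adjusted over the 10 genes). It rested on 10, 20 and 17 opposite-strand reads in the libraries labelled activated and 13, 9 and 17 in those labelled control. The Mapt shares did not overlap between the labels, and a test of 3 against 3 libraries cannot pass the threshold for any of the 10 genes. Map1a overlaps the protein-coding gene Ppip5k1 on the opposite strand, and Map1b overlaps 5330431K02Rik on its own strand, which had 172 to 398 reads a library.

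Genes whose profile over the 6 libraries was closest were found for the member of each kind with the smallest p, as the root mean square difference of centred log2 CPM, among 9195 genes of at least 10 CPM on average. For Mapt they included Pa2g4 (0.0140) and Cul3 (0.0148), where the median over all genes compared was 0.175. For Stmn2 they were Hsbp1 (0.0162), Thra (0.0195) and Vdac2 (0.0200), beside a median of 0.213, and for Gap43 they were Etf1 (0.0202), Kpna1 (0.0227) and Ppp1r2 (0.0230), beside 0.239. The genes named here were all called lower in the libraries labelled activated, with log2 fold changes from -0.36 to -0.52. These profiles share the same 6 libraries and 2 groups, and the closeness is a description only.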

How the data were processed

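Per the labels' protocols, total RNA was extracted in Trizol, freed of ribosomal RNA, and sequenced from both ends (150 bp reads, strand kept) on a NovaSeq. Per the submitters' processing notes, STAR 2.5.2b and mm10 were used, with edgeR also named; aligner settings and annotation release are not given in the sources used here. The deposited values were raw read counts per gene, 1 file per library, and the reverse-strand column was used. The 4 lines of each file that name no gene were left out; reads outside exons took 28.3% to 37.3% of reads in the libraries labelled activated and 25.1% to 29.6% in those labelled control, unmapped reads 7.49% to 9.88%, multimapping reads 5.17% to 6.34% and ambiguous reads 0.736% to 0.977% over all libraries. Names, coordinates and exon lengths came from GENCODE M21 (GRCm38, the same build as mm10), which held 55144 of the 55385 identifiers. Genes passed filterByExpr (minimum count 10, minimum total 15), libraries were scaled by TMM, and edgeR 4.0.16 in R 4.3.3 compared the groups by its quasi-likelihood F test over 18132 genes, with Benjamini-Hochberg adjustment and a threshold of 0.05. Standard errors were derived from the log2 fold change and F. Replicates differed by more than counting noise (chi-square per degree of freedom 4.82 to 13.1). Alternatives used DESeq2 1.42.0 size factors and Wald test, total counts, scaling to pan-neuronal genes, no low-count filter or one of 1 CPM in 3 libraries, counts from both strands, a block for replicate number, and leaving out each library. Spline offsets (4 degrees of freedom) for GC content and exon length and leaving out mitochondrially encoded genes were chosen after seeing the data. The fit was tested on simulated data, and plots were drawn with matplotlib 3.10.9. The 10 genes, the lists and the tests were chosen with earlier results of these data known. The text names all 10 genes, the 3 genes of each list with the smallest p and the 3 nearest profiles; others were named after their values were seen, and some genes the rule names are not reported here.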

Additional observations from a re-analysis of the deposited data

How the results depend on the processing

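With libraries scaled to the pan-neuronal genes, 1 of the 10 genes was lower and 3 were higher, in place of 7 and 1, and the signs of Map1b (0.15) and Dcx (0.10) turned. Over all tested genes that scaling gave 610 lower and 9251 higher calls, beside 3733 and 2945 under TMM and 4576 and 2089 with total counts only. With each library left out in turn, 6 to 7 of the 10 genes were lower and 0 to 1 higher; the count of 0 came without activated replicate 1. Under the other alternatives run, 6 to 8 genes were lower and 1 higher. The 6 ratios moved by less than the spread between replicates under all 54 alternatives run for them. Among these, the replicate block cannot change the difference by arithmetic, nor can leaving out length scaling for a ratio of single genes. Those alternatives therefore test nothing. For the lists, 234 of 280 recounts stayed within 1.5 times and 46 moved further. With the replicate number as a block, 6 genes were lower and 1 was higher, and Dcx (-0.22) lay just past the threshold (edgeR adjusted p = 0.05004). Correlations of deviations from group means were -0.01, -0.18 and -0.21 for same-numbered libraries 1, 2 and 3, and -0.04 to 0.21 for differently numbered ones. Deviations from a mean of 3 libraries constrain one another, so these values cannot show whether same-numbered libraries had a shared origin. With 3 libraries a group, a ratio cannot reach an exact p below 0.1. Each of the 10 genes had at least 1416 reads in every library.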

Other observations

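Within the axon growth list, the 5 cell adhesion genes of the immunoglobulin superfamily did not share the direction of Gap43. Their log2 fold changes were 0.16 for Nrcam, 0.15 for L1cam, 0.14 for Chl1, 0.13 for Cntn2 and 0.11 for Ncam1, and none passed the test (edgeR adjusted p = 0.0805 for Nrcam and 0.289 for Ncam1, the lowest and highest). Without activated replicate 2, 3 genes of the list were called higher. The genes of proteins that, like GAP-43, sit on the inner face of the membrane had values of -0.50 for Basp1, -0.33 for Marcks and -0.59 for Marcksl1, and all 3 passed. The collapsin response mediator genes, whose proteins bind tubulin, had -0.53 for Crmp1, -0.41 for Dpysl2, -0.27 for Dpysl3, -0.39 for Dpysl4 and -0.26 for Dpysl5, and each passed. These genes were grouped after their values were seen, and the difference between the groups was not tested.

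Among the motors, Kif5a (0.19), Kif5b (0.09), Kif5c (-0.06), Kif1a (0.12), Kif1b (0.00) and Kif17 (-0.26) did not pass. The kinesin motor genes Kif3a (-0.33), Kif3b (-0.39), Kif3c (-0.37), Kif21a (-0.16) and Kif21b (-0.31) fell, as did the light chain genes Klc1 and Klc2. This grouping too was made after the values were seen, and no difference between the kinesins was tested. Map4 (-0.40), related to Map2 through its microtubule-binding repeats, fell.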
